A study of Salmo salar with 79 samples.

Results

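C-X-C motif chemokine 10 (CXCL10) was followed in the skin of Atlantic salmon with the array probe Ssa#S47728457, which is 1 of 14841 probes for genes on a 15k oligonucleotide microarray. The probe was picked by its identifier after its level at 3 days post wounding (dpw) had been seen to lie above intact skin at high fish density and below intact skin at control density. Its levels at all days and at both densities therefore describe the reason for the choice, and they are given with no test.

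Salmon were stocked at a high fish density (HFD, 100 kg/m3) or at a density serving as control (20 kg/m3), and some weeks later they were wounded with a skin punch. According to the paper these were densities at stocking, and over the study density rose in HFD and fell in control. Wounds of 5 fish per treatment and day were taken on 7 days between 1 and 57 dpw, and skin taken before wounding, called intact here, came from 4 fish per treatment. Each treatment was kept in 1 tank, so that tank and density cannot be told apart. The whole set holds 78 fish in 16 groups on 79 arrays, since control fish 3 at 57 dpw was hybridised on a pair of arrays that were averaged. Each fish gave 1 sample and was sampled at 1 day, and p-values below measure the spread between fish within a tank.

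CXCL10 is a small secreted chemokine that is induced by interferons, a family of cytokines. In mammals it attracts T cells and natural killer cells that carry the receptor CXCR3. Chemokines as a family steer leukocytes into damaged tissue, which makes them part of the early inflammatory phase of wound repair, and different chemokines recruit different cells.

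Levels are log2 intensities of the scanner software's processed signal minus the 75th percentile of the same array, so that a probe at that percentile has a level of 0. The CXCL10 probe was well above background on all 79 arrays, with intensities between 48.7 and 939. The share of probes well above background ranged from 60.1% to 94.5% per array. At 3 dpw this share was 83.4 to 90.3% in HFD and 82.1 to 87.5% in control, and in intact skin it was 80.1 to 88.9% and 81 to 84.3%. Of the 10 slides, 6 held intact skin to 14 dpw and 4 held the later days, so that the early and the late days share no slide. The early slides were scanned on scan day 1 and the late slides on scan days 2 and 3.

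In intact skin the CXCL10 level was alike in both treatments. The 4 HFD fish had levels of -2.25, -2.06, -1.02 and -2.07, with a mean of -1.85 ± 0.56 (SD, n = 4). Fish 3 stood apart at the top of that group, and the summed level of 9 muscle fibre probes in the same fish was 135 times the 75th percentile, against 33.1 to 41.4 in the other HFD fish. The part of muscle tissue in the high CXCL10 level of that fish was not tested. The 4 control fish had levels of -1.64, -2.08, -1.97 and -2.14, with a mean of -1.96 ± 0.23 (SD, n = 4). These values lay within the range of the HFD fish.

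At 1 dpw the level had not moved away from that of intact skin in either treatment. HFD fish had levels of -1.87, -1.75, -1.40, -1.88 and -2.05, with a mean of -1.79 ± 0.24 (SD, n = 5). Control fish had levels of -2.27, -1.85, -2.34, -1.17 and -1.81, with a mean of -1.89 ± 0.47 (SD, n = 5). The range of the control fish took in that of the HFD fish.

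At 3 dpw the treatments lay on opposite sides of intact skin. HFD fish 1 to 5 had levels of -0.45, -0.39, -2.12, -0.10 and -0.96, with a mean of -0.81 ± 0.80 (SD, n = 5). Of these fish, 4 lay above every control fish of the same day, while fish 3 was at the level of intact skin. Control fish 1 to 5 had levels of -3.26, -3.52, -4.17, -1.62 and -2.56, with a mean of -3.03 ± 0.97 (SD, n = 5). Of these, 4 lay below all intact control fish, and fish 4 was at the upper end of intact skin and above HFD fish 3, so that the groups overlapped by 1 fish on each side.

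The HFD mean at 3 dpw exceeded the control mean by 2.22 on the log2 scale (SE 0.50), a 4.67-fold difference. Against its own intact skin, the level was higher by 1.05 (SE 0.42) in HFD, a 2.06-fold difference. In control it was lower by 1.07 (SE 0.44), a 2.10-fold difference. The difference between these responses was 2.12 (SE 0.65). The median response of all probes was not 0, being -0.32 in HFD and -0.12 in control, and relative to these medians the CXCL10 responses were 1.37 and -0.95. Without intact HFD fish 3 the response in HFD was 1.32.

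The size of the fall in control rested on the processing more than its direction did. With the authors' scaled table the responses were 1.57 in HFD and -0.63 in control, or 1.40 and -0.91 relative to the medians of all probes on that scale. With normexp background correction and quantile normalization they were 0.95 and -0.48, and the difference between HFD and control at 3 dpw was 1.43.

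**Figure D1:**
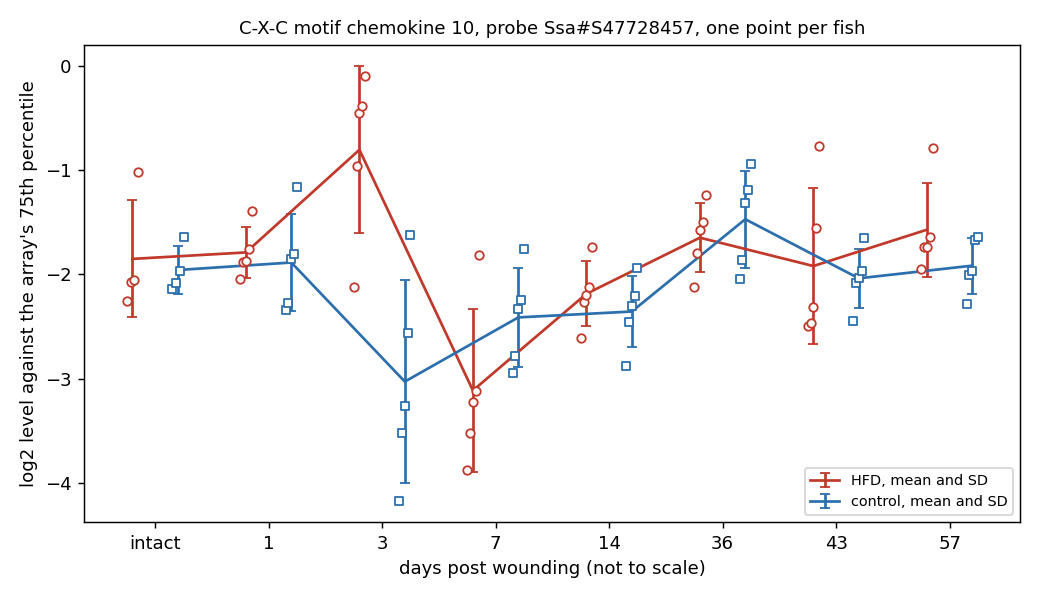
Log2 level of the CXCL10 probe against the array's 75th percentile (vertical axis) by days post wounding (horizontal axis, not to scale), with 1 open point per fish and the mean and SD of each group joined by lines. At 3 dpw the HFD mean of -0.81 is the highest of the 16 groups and the control mean of -3.03 lies below intact skin, whereas at 7 dpw the HFD mean of -3.11 is the lowest.

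At 7 dpw the order of the treatments was turned around. HFD fish had levels of -3.23, -1.82, -3.88, -3.12 and -3.52, with a mean of -3.11 ± 0.78 (SD, n = 5). All but fish 2 lay below every control fish of that day, and fish 2 was close to the highest control fish. Control fish had levels of -2.24, -2.78, -2.33, -1.76 and -2.95, with a mean of -2.41 ± 0.47 (SD, n = 5). HFD was lower than control by 0.70 (SE 0.37). Against intact skin, the difference was -1.26 (SE 0.42) in HFD and -0.45 (SE 0.24) in control. The HFD mean at 7 dpw was close to the control mean of -3.03 at 3 dpw.

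At 14 dpw both treatments were slightly below intact skin. HFD fish had levels of -2.26, -2.19, -1.74, -2.61 and -2.12, with a mean of -2.19 ± 0.31 (SD, n = 5). Control fish had levels of -2.87, -2.45, -1.94, -2.30 and -2.21, with a mean of -2.36 ± 0.34 (SD, n = 5). The ranges overlapped over most of their length.

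At 36 dpw the means of both treatments were above intact skin with this probe, by 0.20 (SE 0.28) in HFD and 0.49 (SE 0.25) in control. With the other CXCL10 precursor probe, Ssa#S35538601, the differences were -0.02 in HFD and -0.04 in control. Intact skin and 36 dpw share no slide. HFD fish had levels of -1.80, -2.12, -1.24, -1.50 and -1.58, with a mean of -1.65 ± 0.33 (SD, n = 5). Control fish had levels of -2.05, -1.31, -1.20, -0.94 and -1.86, with a mean of -1.47 ± 0.47 (SD, n = 5). The highest value was in a control fish and the lowest in an HFD fish, with the others mixed.

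At 43 dpw single HFD fish stood out. HFD fish had levels of -2.47, -1.55, -2.31, -0.77 and -2.49, with a mean of -1.92 ± 0.75 (SD, n = 5). Fish 4 had a level close to that of the HFD wounds at 3 dpw. Control fish had levels of -1.97, -2.45, -2.08, -1.65 and -2.04, with a mean of -2.04 ± 0.29 (SD, n = 5), all inside the range of the HFD fish.

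At 57 dpw the picture was similar. HFD fish had levels of -1.73, -0.79, -1.74, -1.95 and -1.65, with a mean of -1.57 ± 0.45 (SD, n = 5), and fish 2 was the highest. Control fish had levels of -2.29, -1.97, -1.67, -1.65 and -2.01, with a mean of -1.92 ± 0.27 (SD, n = 5). The pair of arrays of control fish 3 gave -1.78 and -1.55, which differ by less than the SD between fish.

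Ordered by their means, the 16 groups ran from HFD at 3 dpw through control at 36 dpw and HFD at 57 dpw down to control at 7 dpw, control at 3 dpw and HFD at 7 dpw. No neighbours in that order differed by more than the larger of their SDs. The widest gaps were those below HFD at 3 dpw, 0.67 against an SD of 0.80, and below control at 7 dpw, 0.62 against an SD of 0.97. The other 12 groups lay between -1.47 and -2.36. Apart from 3 and 7 dpw, HFD minus control was between -0.18 and 0.34.

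The arrays of 3 dpw and intact skin were spread over 6 slides. Of these, 1 slide held both treatments at 3 dpw, and on it HFD fish 1 was higher than control fish 5 by 2.11. No slide held 3 dpw and intact skin of the same treatment, so that neither response could be computed within a slide. Where HFD at 3 dpw shared a slide with intact control skin, it was higher by 0.61 on one slide and by 1.52 on the other. Control at 3 dpw shared a slide with intact HFD skin, which was higher by 1.85. With all 16 groups in one fit and slide as a block, an alternative chosen after seeing the data, the responses were 1.29 in HFD and -1.51 in control.

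A second probe of the same name, Ssa#S35538601, was taken to measure the same RNA, which was not tested, and is no independent evidence. Its levels at 3 dpw averaged -1.17 ± 0.82 (SD, n = 5) in HFD and -3.52 ± 0.99 (SD, n = 5) in control, against -2.29 ± 0.66 (SD, n = 4) and -2.40 ± 0.27 (SD, n = 4) in intact skin. HFD exceeded control by 2.35 (SE 0.51), and the responses were 1.12 (SE 0.45) in HFD and -1.13 (SE 0.46) in control. At 7 dpw its mean was -3.57 ± 0.73 (SD, n = 5) in HFD and -2.83 ± 0.55 (SD, n = 5) in control. Across the 78 fish the levels of both probes correlated with r = 0.912, with r = 0.979 over the 48 fish up to 14 dpw and r = 0.766 over the 30 fish from 36 dpw, where the levels varied less. They were read on the same arrays, so that array effects are shared.

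Another probe, Ssa#S38795880, is named CXCL10-like chemokine and had another course. Its mean level in HFD was -2.64 ± 1.39 (SD, n = 4) in intact skin. It was -4.44 ± 0.85, -3.21 ± 1.76, -3.55 ± 0.52 and -0.87 ± 0.45 (SD, n = 5) in wounds of 1, 3, 7 and 14 days. In control it was -2.55 ± 0.50 (SD, n = 4) in intact skin, -3.72 ± 1.20, -4.38 ± 0.85, -1.93 ± 1.26 and -1.46 ± 0.70 on the same days. The mean level was thus below intact skin at 1 and 3 dpw in both treatments, and at 7 dpw in HFD only. It was high from 14 dpw, with means between -1.62 and -0.33 from 36 to 57 dpw in the 2 treatments. In control it was lower at 3 dpw than in intact skin by 1.83 on the log2 scale (SE 0.43, adjusted p = 0.0066, limma) and higher at 36 dpw by 2.22 (SE 0.38, adjusted p = 0.0027, limma). Intact skin and 36 dpw share no slide and no scan day, so that time and array set cannot be told apart in the latter comparison. HFD minus control was 1.16 (SE 0.77, adjusted p = 0.43, limma) at 3 dpw and -1.63 (SE 0.55, unadjusted p = 0.014, adjusted p = 0.18, limma) at 7 dpw. Both differences had the sign of the CXCL10 difference of the same day. The pair of arrays of control fish 3 at 57 dpw gave -0.89 and 0.97 for this probe, a wider gap than for the other CXCL10 probes. Its correlation with the CXCL10 probe over the 78 fish was r = 0.267.

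**Figure D2:**
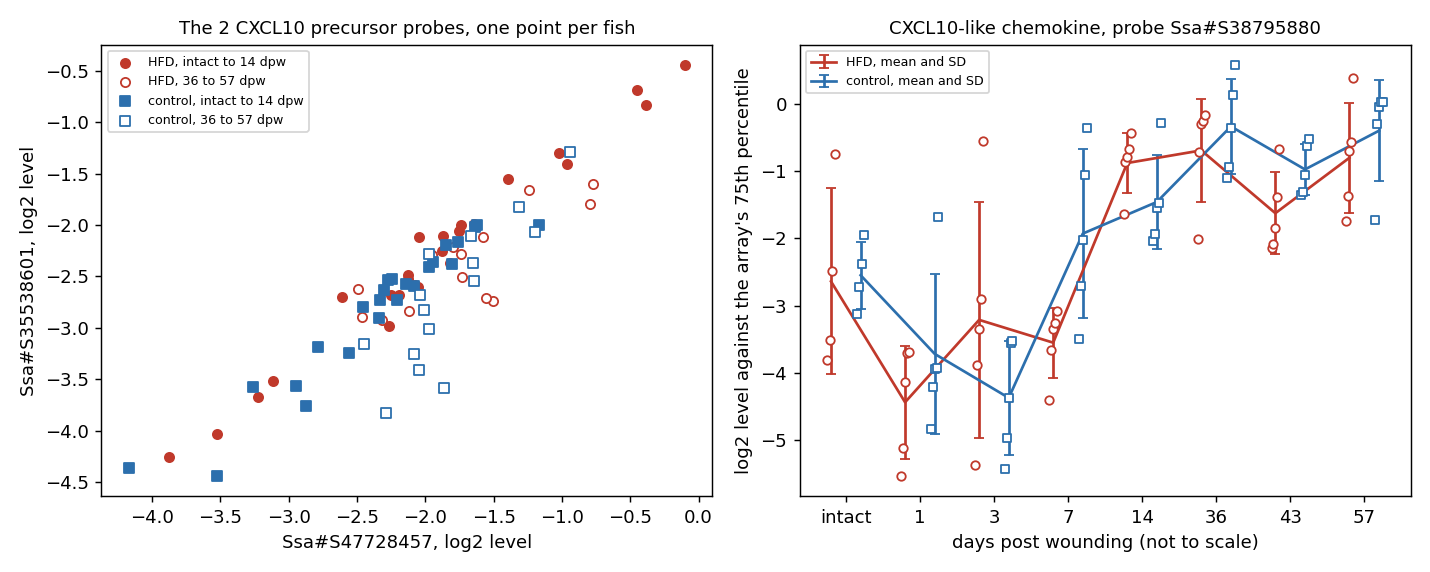
Left, log2 levels of both CXCL10 precursor probes, 1 point per fish, with HFD as circles, control as squares, filled symbols for intact skin to 14 dpw and open symbols for 36 to 57 dpw. Right, log2 level of the CXCL10-like probe by days post wounding (not to scale) with mean and SD, which falls in the first days and is at its highest from 14 dpw, unlike CXCL10.

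The other genes were tested over all probes of each comparison with limma. The criteria, which are those of the study, asked for a log2 difference beyond 0.8 together with an unadjusted p under 0.05, and Benjamini-Hochberg adjusted p-values are given beside them. Of 12838 probes tested between HFD and control at 3 dpw, 821 passed the criteria, or 6.4%. Of these, 434 were higher in HFD (3.38%) and 387 lower (3.01%). None had an adjusted p under 0.05 with limma, the lowest being 0.062, while 2550 had an unadjusted p under 0.05. With normexp background correction and quantile normalization 251 probes passed, 74.9% of them higher in HFD against 52.9% here, and 9 passed adjustment. The gene groups below were taken from the study's list of genes that differed on these same arrays, so that their counts at 3 and 7 dpw are no independent evidence of a direction.

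Among other chemokine ligands, more probes were lower than higher in HFD. Of 15 probes, 6 were lower in HFD at 3 dpw and 1 was higher by the criteria, against 3.01% and 3.38% of all probes. The median difference of the 15 was -0.75, against -0.05 over all probes. The lower ones were probes of C-C motif chemokines 20, 21 and 28. Chemokine 20 draws dendritic cells and lymphocytes into epithelia in mammals. Its probe Ssa#S35549491 had levels of -8.34, -6.17, -6.07, -7.21 and -5.58 in HFD, where it was well above background in 3 of 5 fish, and of -2.81, -2.10, -3.65, -1.35 and -3.16 in control. The groups did not overlap, which held for 5.67% of the probes. The probe needed control, where it was brighter, to enter the test, so neither a size nor a p-value of the difference is given.

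The other chemokine 20 probes did not all move this way at 3 dpw. Ssa#S50370761 was lower in HFD, where it was well above background in 2 of 5 fish. It too needed control to enter the test, and no size or p-value is given. Both probes remain in the count of lower ligand probes. Ssa#S35592814 and Omy#S22928835 differed by -0.49 (SE 0.36) and -0.45 (SE 0.28) and did not pass the criteria. Probes of one name can stand for different gene copies in salmon, whose genome was duplicated.

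Chemokine 21, which in mammals guides cells carrying CCR7 into lymphatic vessels, was read by 3 probes with differences of -3.20 to -3.45. The probe Ssa#TC109014 had levels of -2.14, -3.57, -3.49, -3.76 and -3.87 in HFD. In control the levels were 1.20, 1.72, -1.68, 2.13 and -3.14, so that 3 fish were near intact skin, which averaged 2.04 ± 0.33 (SD, n = 4), while fish 3 and 5 lay low like the HFD fish. The difference was -3.41 (SE 0.96, adjusted p = 0.10, limma). Chemokine 28, a chemokine of mucosal surfaces in mammals, was lower by 1.34 (SE 0.44, adjusted p = 0.14, limma) with the probe Ssa#S35559539, while its other 2 probes differed by -0.75 and -0.78 and did not pass the criteria.

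The ligand probe that was higher in HFD, CC chemokine Ssa#S35695331, was higher than in intact skin in both treatments. It was well above background in only 2 of 4 intact fish of each treatment and needed the wounds to enter the test. Neither a size nor a p-value of these responses is therefore given. HFD minus control was 0.81 (SE 0.16, adjusted p = 0.064, limma), and the groups did not overlap.

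At 7 dpw the count of lower ligands was larger. Of the 15 probes, 11 were lower and 1 was higher in HFD by the criteria, with a median of -2.19 against 0.03 over all probes, where 567 of 13065 probes passed in either direction (4.34%), 2.78% lower and 1.56% higher, and 0.0842% also passed adjustment. Chemokine 20 probes Ssa#S35592814 and Omy#S22928835 were lower by 2.19 (SE 0.26, adjusted p = 0.026, limma) and 2.11 (SE 0.30, adjusted p = 0.038, limma), with no overlap between groups, which held for 4.39% of all probes. Chemokine 13 (Ssa#S35582601) was lower by 1.32 (SE 0.34, adjusted p = 0.11, limma), and CXCL14 (Omy#S34425099), a chemokine of epithelia in mammals, was higher by 0.82 (SE 0.19, adjusted p = 0.089, limma). On this day CXCL10 was also lower in HFD, by 0.70.

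With slide as a block, the count of 6 ligand probes lower in HFD at 3 dpw did not hold. Only 1 slide then carries the comparison, with 1 HFD and 1 control fish, so that fit cannot decide on the ligands.

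**Figure D3:**
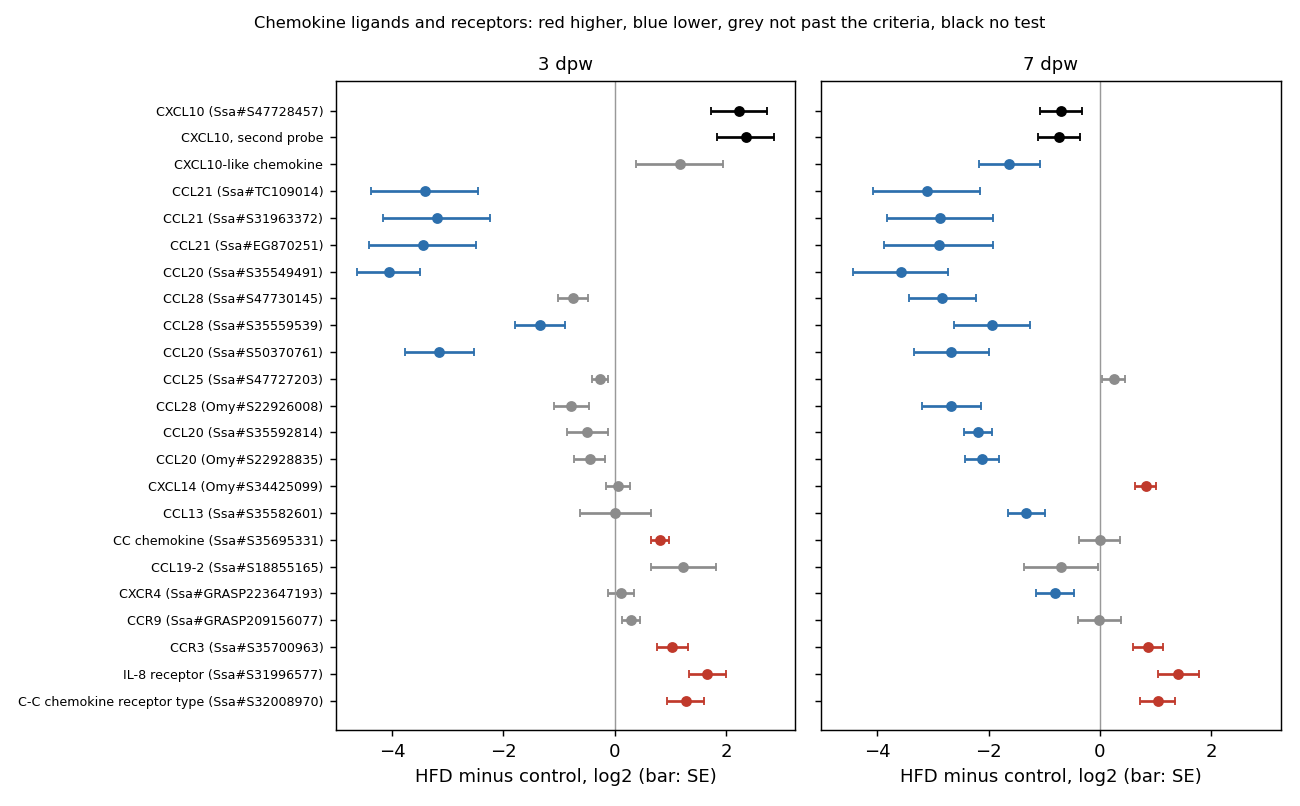
HFD minus control on the log2 scale (horizontal axis, bars are SE) of the CXCL10 probes, 15 other chemokine ligand probes and 5 chemokine receptor probes at 3 dpw (left) and 7 dpw (right). Red marks probes past the criteria and higher in HFD, blue lower, grey not past the criteria, and black the CXCL10 probes with no test. At 3 dpw CXCL10 lies furthest to the right at 2.22 and 2.35, and 6 ligand probes of chemokines 20, 21 and 28 are blue, against 11 blue among the 15 ligand probes at 7 dpw.

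Among chemokine receptors, 3 of 5 probes were higher in HFD at 3 dpw by the criteria, against 3.38% of all probes. The median difference of the 5 was 1.03. The receptor of interleukin-8 (Ssa#S31996577), which neutrophils carry, had levels of -1.52, -2.45, -1.54, -1.19 and -1.37 in HFD and of -3.50, -3.47, -2.65, -4.14 and -2.61 in control, with no overlap. The difference was 1.66 (SE 0.33, adjusted p = 0.064, limma). C-C chemokine receptor type 3 (Ssa#S35700963) was higher by 1.03 (SE 0.28, adjusted p = 0.094, limma) and Ssa#S32008970, a C-C chemokine receptor of unstated type, by 1.27 (SE 0.33, adjusted p = 0.092, limma). CXCR4 (Ssa#GRASP223647193), a receptor on many leukocytes, differed by 0.11 (SE 0.24). CXCR3 is not among the named probes and was not analysed here.

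The same 3 receptor probes were higher in HFD at 7 dpw, by 0.86 to 1.41, although CXCL10 was by then lower. On that day 1.56% of all probes were higher in HFD by the criteria. CXCR4 was lower in HFD at 7 dpw by 0.81 (SE 0.34, adjusted p = 0.26, limma).

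Genes of the interferon and virus response are the usual company of CXCL10. Of 38 probes in the study's category, 26 were higher in HFD at 3 dpw and 1 lower, against 3.38% and 3.01% of all probes. The lower one was the kinase Jak1. The 38 probes had a median difference of 1.12, against -0.05 over all probes. None passed Benjamini-Hochberg adjustment with limma, and 27 had an unadjusted p under 0.05. The category also holds probes such as gelsolin and mucin 5AC that are not usually counted as interferon genes.

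Viperin, an antiviral enzyme of the endoplasmic reticulum, is one of the most strongly interferon-induced genes of fish and mammals. The probe Omy#S15341095 had levels of 2.56, -0.45, 1.49, 0.59 and 0.63 in HFD and of -1.82, -1.05, -0.11, -0.37 and -1.32 in control at 3 dpw. Only HFD fish 2 lay among the control fish, and the difference was 1.90 (SE 0.53, adjusted p = 0.099, limma). This was not the fish with the low CXCL10 level, which was fish 3. A second viperin probe, Ssa#S32000097, was higher by 1.78 (SE 0.48, adjusted p = 0.092, limma). Before wounding, HFD minus control was already 0.94 (SE 0.66) for Omy#S15341095 and 1.24 (SE 0.60) for Ssa#S32000097. Neither passed the criteria in intact skin.

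The largest difference of the category was that of thymidylate kinase (Ssa#S40667279), with levels of -0.26, -2.94, -1.73, -2.63 and -1.81 in HFD and of -3.31, -4.63, -3.27, -4.13 and -4.13 in control. The groups did not overlap, and the difference was 2.02 (SE 0.48, adjusted p = 0.076, limma). Receptor transporting protein 3 (Ssa#KSSb2765) was higher by 1.82 (SE 0.62, adjusted p = 0.14, limma). Before wounding, HFD minus control was already 1.02 (SE 0.52) for thymidylate kinase and 1.15 (SE 0.77) for receptor transporting protein 3. Neither passed the criteria in intact skin.

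The responses of these genes to wounding were set beside that of CXCL10 without a test between them. At 3 dpw the median response of the 38 probes was 0.54 in HFD and -0.20 in control, against -0.32 and -0.12 over all probes, and with the authors' scaled table the control median turned to 0.23, against 0.28 over all probes. Of the 38 probes, 18 were above intact skin in HFD and below it in control, as CXCL10 was, and 1 was the other way around. Opposite signs of the 2 responses were thus seen in 19 of the 38 probes, and in 17% of the 12706 probes tested in both. No interferon probe passed the criteria in both responses with opposite signs. In HFD 5 probes rose and 2 fell by the criteria, and in control 1 rose and 6 fell, where 40.6% and 36% of all probes passed in either direction. Of these, 35.3% in HFD and 41.9% in control were higher than intact skin, and the shares were 67.8% and 70.2% on the scale of the authors' table. In HFD 14.4% of all probes were higher and 26.3% lower, and in control 15.1% and 20.9%.

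In control, the falls included VHSV-inducible protein-3 (-1.39, adjusted p = 0.034, limma) and VHSV-induced protein-1 (-0.90, adjusted p = 0.020, limma). These proteins were first described in fish infected with a rhabdovirus. In HFD, myxovirus resistance 1 (Mx), an antiviral GTPase, had a response of 1.30 (adjusted p = 0.056, limma). Cholesterol 25-hydroxylase, which makes an antiviral oxysterol, rose in both treatments, by 2.08 (adjusted p = 0.0017, limma) in HFD and by 2.07 (adjusted p = 0.014, limma) in control.

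Tested directly, the difference between the responses passed the criteria in 4 of the 38 probes, all positive, where 1109 of 13464 probes passed in either direction (8.24%) and 315 were positive (2.34%). These 4 were galectin-9, retinoic acid-inducible gene-I, apolipoprotein-L3 and Ras-related GTP binding C, with differences between 0.99 and 1.22. No probe on the array passed Benjamini-Hochberg adjustment in this comparison with limma, and 1786 had an unadjusted p under 0.05. The counts depended on single intact fish. Without intact control fish 6 the difference passed in 0 of the 38 probes, without intact HFD fish 2 in 1 and without HFD fish 1 of 3 dpw in 2. Without intact control fish 6, 8 in place of 18 probes had the signs of CXCL10. On the scale of the authors' table, 9 had them. With the intact fish of both treatments pooled, 25 probes passed, but a shared base cancels. That count is therefore one of HFD minus control at 3 dpw, and it does not test the difference of the responses.

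At 7 dpw most of the interferon category lay above intact skin while CXCL10 lay below it. The median response of the 38 probes was 0.91 in HFD and 1.17 in control, with 19 and 23 probes higher than in intact skin by the criteria (12.4% and 12% of all probes were higher, 22.1% and 17.7% lower) and 1 and 0 lower, while the CXCL10 responses were -1.26 and -0.45. At this day 3 of the 38 probes were higher and 2 lower in HFD than in control, against 1.56% and 2.78% of all probes. The summed level of the 38 probes was 230 to 294 (median 266) in HFD and up to 442 (median 273) in control at 7 dpw, in multiples of the 75th percentile. At 3 dpw it was 110 to 323 and 66.8 to 103, and in intact skin 51.5 to 190 and 60.2 to 187.

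**Figure D4:**
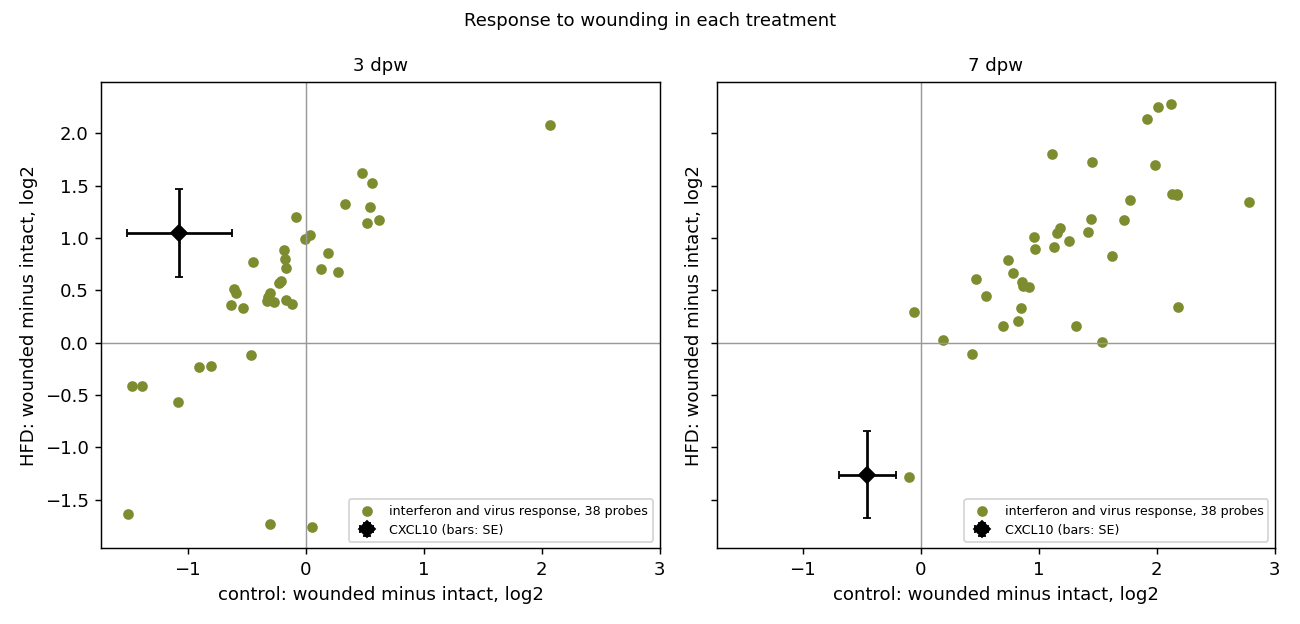
Response to wounding (wounded minus intact skin, log2) in control (horizontal axis) and HFD (vertical axis) at 3 dpw (left) and 7 dpw (right) for 38 interferon and virus response probes (circles) and CXCL10 (diamond, bars are SE). At 3 dpw CXCL10 lies at 1.05 in HFD and -1.07 in control, at the edge of a cloud of which 18 probes share its signs, and at 7 dpw it is low in both treatments while most of the 38 probes are above 0.

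Over all 12706 probes tested in both responses at 3 dpw, 9 passed the criteria in both with opposite signs, or 0.0708%. Of these, 3 were higher in HFD and lower in control. Both CXCL10 probes were among them, which follows from the choice of CXCL10 for this pattern. Their place there is no test of CXCL10 and no measure of how rare it is. Beside them stood GTPase IMAP family member 7 (Ssa#TC106938), a GTPase of lymphocytes that was picked out after its values were seen. Its levels in intact HFD skin were -1.63, -1.46, -5.63 and -7.21, so that its response of 2.64 in HFD (SE 1.13, adjusted p = 0.074, limma) rested on 2 dim fish. The other 6 were lower in HFD and higher in control, and 1 of them, mitogen-activated protein kinase kinase kinase kinase 5, had a name.

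Proinflammatory cytokines were higher in HFD at 3 dpw in 4 of 5 probes, against 3.38% of all probes. Interleukin-1 beta (Ssa#CL122Contig1), which opens the inflammatory cascade, had levels of -0.06, -1.05, -1.65, -0.58 and -0.16 in HFD and of -4.49, -3.84, -1.11, -3.87 and -1.63 in control, with a difference of 2.29 (SE 0.65, adjusted p = 0.10, limma). The interleukin-6 relative M17 (Ssa#S48442658) was higher by 2.64 (SE 0.77, adjusted p = 0.11, limma) and interleukin-11 (Omy#S22610346) by 1.90 (SE 0.58, adjusted p = 0.12, limma). Against intact skin, where it was well above background in every fish, interleukin-11 rose by 4.46 in HFD (adjusted p = 6.34e-06, limma) and by 2.22 in control (adjusted p = 0.016, limma). M17 was not well above background in any of the 4 intact control fish, and it entered the test only through the wounds. No p-value is therefore given for its rise in control. That rise is a bound, at least 18.2-fold. The intact level was taken as the higher of the dimmest signal well above background on the array and the probe's own. In intact HFD skin M17 was well above background in 2 of 4 fish, and interleukin-1 beta was so in 1 of 4 intact fish of each treatment, and no size of their responses is given.

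TNF and NF-kappa-B form the receptor and transcription factor pathway that also acts on chemokine genes. Of its 10 probes, 6 were higher in HFD at 3 dpw, against 3.38% of all probes. They included TNF decoy receptor (Ssa#S35595553) by 1.495 (SE 0.36, adjusted p = 0.079, limma) and NF-kappa-B p100 (Ssa#GRASP223647877) by 1.36 (SE 0.33, adjusted p = 0.079, limma). Their responses were positive in both treatments, 2.12 in HFD and 0.44 in control for p100.

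Lists of marker genes of other cells were read on the same arrays. Of 13 tested phagocyte effector probes, 6 were higher and 1 lower in HFD at 3 dpw, against 3.38% and 3.01% of all probes. Myeloperoxidase (Ssa#CL175Contig1), an enzyme of neutrophil granules, was higher by 1.92 (SE 0.37, adjusted p = 0.064, limma). The summed level of the 14 phagocyte probes was 80.6 to 132 in HFD and 53.9 to 78.4 in control, and 13 of them were well above background in every fish of both groups. In intact skin it was 15.1 to 22.7 and 13 to 18.1. HFD fish 3, with the low CXCL10 level, had a sum of 81.5, near the lowest of its group, while fish 2, with a high level, had 80.6. The other 6 tested probes did not pass in either direction.

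The T cell list had 2 of 8 probes higher and 1 lower in HFD at 3 dpw, against 3.38% and 3.01% of all probes. It holds probes of T cell receptors beside others, such as leukocyte surface antigen CD53, so that it is not a measure of T cells alone. Its summed level was 48.4 to 78.5 in HFD and 34.6 to 65.3 in control, with overlapping ranges, against 7.99 to 21.4 and 11.3 to 12.9 in intact skin. The CD276 antigen (Ssa#GRASP209731943), a costimulatory molecule, was higher by 1.70 (SE 0.41, adjusted p = 0.079, limma) and SRC-like-adapter (Ssa#GRASP209154663), which dampens antigen receptor signalling, by 0.93 (SE 0.16, adjusted p = 0.063, limma). Already in intact skin CD276 was higher in HFD by 1.78 (SE 0.64, adjusted p = 0.67, limma), past the criteria. It was well above background there in only 2 of 4 control fish. SRC-like-adapter differed by -0.03 in intact skin. In bulk skin a higher number of cells and more RNA per cell cannot be told apart.

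Of 9 muscle fibre probes, 2 were higher in HFD at 3 dpw and none lower, against 3.38% and 3.01% of all probes. Myosin light polypeptide 4 (Ssa#GRASP221220265) differed by 4.28 (SE 1.28, adjusted p = 0.12, limma) and slow skeletal muscle troponin T (Ssa#GRASP221221461) by 2.60 (SE 0.66, adjusted p = 0.089, limma). Troponin T had levels of -0.42, 0.41, -1.57, -0.01 and -2.94 in HFD and of -3.87, -3.76, -4.32, -3.74 and -1.81 in control, with control fish 5 above HFD fish 5. The summed muscle level was 17.2 to 26.6 in HFD and 11.8 to 21.4 in control at 3 dpw, and 33.1 to 135 and 37.5 to 57.7 in intact skin.

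No immunoglobulin or keratin probe of 17 and 8 passed the criteria at 3 dpw with limma, against 6.4% of all probes in either direction. An unadjusted p under 0.05 was seen in 0 and 1 of them, against 2550 of all 12838 probes. Lists this short can hold no call at such a share. Of the 5 red blood cell probes, erythropoietin receptor (Ssa#GRASP223647625) was higher by 0.84 (SE 0.26, adjusted p = 0.12, limma), where 3.38% of all probes were higher by the criteria. The summed level of the 5 was 8.38 to 27.1 (median 9.58) in HFD and 3.78 to 12.5 (median 10) in control. In the antigen presentation list 1 of 8 tested probes was higher and 1 lower, against 3.38% and 3.01% of all probes. The part of these cell types in the CXCL10 levels was not tested.

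Across all 78 fish the levels of 12186 probes that were well above background on at least 50% of the arrays were compared with CXCL10. After the second CXCL10 probe, the next probe had r = 0.539 and the tenth r = 0.474, and 2 of the 10 had a name, the other being acetylcholine receptor subunit alpha. A name was at hand for only 738 of the 12186 probes. With deviations from the 16 group means in place of levels, the second CXCL10 probe had r = 0.881 and the tenth probe r = 0.457, again with 2 named, the other being toxin-1, and 3 probes were in both sets of 10. Only 1 of the 10 was also among the 10 of the fish from 36 to 57 dpw, 2 were among those of the fish up to 14 dpw and 4 when Spearman's rho was used. The fish share arrays and slides, and no p-value is given.

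Within the groups, the median correlation of deviations was 0.127 for 35 interferon probes, -0.047 for 15 other chemokine ligands, 0.101 for 5 chemokine receptors, 0.220 for 10 TNF and NF-kappa-B probes, 0.142 for 13 phagocyte probes, 0.150 for 9 muscle fibre probes, 0.116 for 16 immunoglobulin probes and 0.126 for 8 T cell probes. It was 0.0411 for 8 keratin probes, -0.018 for 8 antigen presentation probes, -0.0717 for 5 red blood cell probes and -0.029 for 5 cytokine probes. With levels of all fish in place of deviations, the medians were 0.213 for the muscle fibre, 0.224 for the antigen presentation, 0.186 for the immunoglobulin and 0.0589 for the interferon probes, and intact HFD fish 3 was high in both CXCL10 and the muscle fibre sum. The median over all 12186 probes was -0.0225 with deviations and -0.0404 with levels.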

How the data were processed

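RNA from salmon skin was hybridised to 1-colour oligonucleotide arrays, and the authors deposited scanner files whose processed-signal intensity values came from Feature Extraction 12.0.1.1, background-subtracted and not normalized between arrays. A second deposited table holds signal values that the authors had scaled, and it served as an alternative. Control spots and spots flagged as outliers themselves were left out. Spots with only a flagged background were kept, a choice made after values were seen. Intensities were taken to log2 minus each array's 75th percentile. Probes were tested in limma 3.58.1 (R 4.3.3) with lmFit and eBayes between the groups compared, if well above background in at least as many fish as the smallest group of the fit holds, with Benjamini-Hochberg adjustment over all tested probes. The study's criteria were a log2 difference over 0.8 and an unadjusted p under 0.05. The script was tested on simulated data.

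The CXCL10 probe and the lists were chosen with earlier results of these data known. Named were the CXCL10 probes, chemokine ligands and receptors past the criteria at 3 or 7 dpw, up to 4 probes of each other list with the largest difference at 3 dpw among those past the criteria, and the 10 probes most like CXCL10. Other probes named as examples were chosen after their values were seen. Alternatives covered scaling, background, filters, slide and fish number as blocks, and each fish left out. Array number limits the precision. Fish numbers come from the labels and do not pair the treatments.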

Additional observations from a re-analysis of the deposited data

Results flagged for a closer look

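In 23 of 212 groups of 4 or 5 fish tested for the 41 named probes, 1 fish lay far from the others of its group by Dixon's criterion. Chance gives about 5% of groups, and probes of one gene or one fish are not independent. The level of CXCL10 was high in intact HFD fish 3 with both probes, -1.02 with Ssa#S47728457 and -1.30 with Ssa#S35538601. It was also high in HFD fish 2 at 57 dpw with Ssa#S47728457 (-0.79), and with Ssa#S35538601 in HFD fish 3 at 1 dpw (-1.56) and HFD fish 4 at 43 dpw (-1.60). The CXCL10-like probe stood apart in control fish 2 at 1 dpw (-1.68) and control fish 1 at 57 dpw (-1.72).

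HFD fish 3 at 7 dpw was low for interleukin-1 beta (-5.46), interleukin-1 beta 2 (-2.70), M17 (-3.86), Ssa#S32008970 (1.37) and neutrophil cytosolic factor 1 (-0.004). At 7 dpw control fish 4 stood apart for interleukin-1 beta (-3.59) and inducible nitric oxide synthase (-1.50), HFD fish 4 for chemokine 13 (-1.81) and HFD fish 1 for viperin Ssa#S32000097 (0.12).

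At 3 dpw HFD fish 1 stood apart for chemokine 21 Ssa#TC109014 (-2.14), HFD fish 2 for the interleukin-8 receptor (-2.45) and HFD fish 3 for CD276 (-2.37). Among control fish of that day, fish 3 stood apart for chemokine 13 (-1.05) and SRC-like-adapter (0.67), fish 2 for myeloperoxidase (0.16) and fish 5 for slow troponin T (-1.81).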

How the results depend on the processing

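CXCL10 at 3 dpw kept its direction under every alternative run: HFD minus control was 1.43 to 2.55 in 11, the response in HFD 0.95 to 1.57 and that in control -1.51 to -0.48 in 10. Leaving out 1 fish at a time gave 1.94 to 2.57, 0.87 to 1.38 and -1.42 to -0.78. HFD minus control in intact skin turned from 0.11 to -0.015 with the authors' scaled table. Leaving out background-flagged spots gave a response of 0.98 in HFD. Interferon probes higher in HFD numbered 23 to 28, and 20 to 33 with 1 fish left out. Chemokine ligands lower in HFD were 6 to 8 with 1 fish left out. Their count did not hold with slide as a block, where 1 fish per treatment carries the comparison. Counts of listed probes here stand without the share of all probes, so their changes are no result about the lists. Interferon probes above intact skin in HFD and below it in control fell from 18 to 9 with the authors' scaled table, and were 8 to 22 with 1 fish left out. The difference of the responses passed in 7 in place of 4 interferon probes with all 16 groups and slide as a block, and in 0 to 6 with 1 fish left out. With intact fish pooled the base cancels, so that the 25 probes passing there are a count of HFD minus control. With normexp 2745 in place of 5309 probes passed in the HFD response, 2539 in place of 4603 in that of control and 251 in place of 821 between HFD and control. Higher calls between HFD and control were 61.9% with median centring and 48.8% with the authors' scaled table, against 52.9%. Background flags, that slide block and median centring were chosen after seeing the data. The cause of these shifts was not tested. Of the 10 probes most like CXCL10, 4, 2 and 1 were shared with Spearman's rho, the early days and the late days. With fish number as a replicate block the difference of CXCL10 was 2.22, and 25 interferon and 6 ligand probes passed; deviations of same-numbered fish at 3 dpw correlated at -0.328 to -0.0488. With only intact skin and 3 dpw of 1 treatment in the fit, a slide block was not run, since no slide holds both.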
